A study of Mus musculus with 2 samples.

Results

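To describe the major urinary protein (Mup) genes copy by copy in injured hepatocytes, the values of 10 genes were read from RNA-seq of primary mouse hepatocytes, namely Mup1, Mup2, Mup3, Mup5, Mup7, Mup10, Mup14, Mup17, Mup20 and Mup21. The genes were chosen by name with their values in this same comparison already known, so that their direction is a description and not a finding. RefSeq identifiers of the mRNA data were paired with gene symbols, and 16 of 27457 mRNA transcripts belonged to these genes. Transcripts were present for 9 of the 10 genes. No identifier was matched to Mup7, so Mup7 has no value here. Whether an identifier without a symbol stands for Mup7 was not determined. Mup5 was listed at 0 in both libraries, which left 8 genes and 15 transcripts with a value in at least 1 library.

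The study compared the oil library with the CCl4 library, with 1 library per group, and asked which RNAs differ in hepatocytes of the fibrotic liver. Both came from wild-type C57BL/6J mice, which the methods describe as male and 5 weeks old, and hepatocytes were isolated by perfusion with pronase and collagenase and a density gradient. The CCl4 mice received a 20% CCl4 solution in mineral oil at 2.5 ml CCl4 per kilogram by intraperitoneal injection, 2 times a week, for 8 weeks according to the labels and for 4 weeks according to the methods. The oil mice received oil alone. CCl4 is a solvent that hepatocytes convert into a reactive product, which injures them. How many mice stand behind each library is not given in the sources used here, and no value below has a replicate or a test. In such RNA from a bulk of cells, fewer hepatocytes and less Mup RNA per hepatocyte cannot be told apart. All values are RPKM, which scale reads to the length of the transcript and the size of the library, and any value under 1 RPKM was listed as 0. Depth was 57991375 reads in the oil library and 64653250 reads in the CCl4 library, as recovered from the steps of the values, so that 1 RPKM on a transcript of 1000 bases stands for 58.0 and 64.7 reads.

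Mup proteins are small secreted carriers of the lipocalin family. The mouse liver releases them into the blood, the kidney passes them into the urine, and there they bind volatile pheromones and release them slowly. Mup20, also called darcin, is itself a pheromone that attracts females to male scent. Liver Mup expression is higher in males, where the pulsed release of growth hormone acts through the transcription factor STAT5. The genes lie in tandem on chromosome 4, with a central array of near-identical copies and more divergent copies at the edges. In the RefSeq table of GRCm38.p6, the patch release of mm10, 22 Mup genes span chr4:59956804-62150841, a stretch of 2.19 Mb. The members with a value lie, in chromosomal order, at chr4:60135913-60139977 (Mup2), chr4:60498012-60501960 (Mup1), chr4:60578260-60582276 (Mup10), chr4:61300037-61304089 (Mup14), chr4:61591929-61595865 (Mup17), chr4:62011337-62054143 (Mup20), chr4:62083476-62087317 (Mup3) and chr4:62147832-62150841 (Mup21). Mup7 lies at chr4:60066469-60070475 and Mup5 at chr4:61831319-61858043.

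How alike the copies are bears on every value that follows, since reads from near-identical transcripts can be assigned to the wrong copy. Promoters and not transcripts are compared here, so that risk was not measured. The RefSeq promoter windows (250 bases before to 50 bases after a transcript start, GRCm38.p6) held 7 of the 10 members, without Mup1, Mup5 and Mup20. Of these 7 members, 6, all but Mup7, share the letters TATATAA. These 6 are shown here from 160 bases upstream of TATATAA, 5′ to 3′, with TATATAA in capitals, because they show the central copies and the edge copies side by side. The start used for a window equals the outer end of the annotated gene span given above for Mup3, Mup7 and Mup21, but lies inside it by 121 bases in Mup2 and Mup10, 91 bases in Mup14 and 33 bases in Mup17, so that the printed stretches of these copies run into the annotated gene. TATATAA begins 27 bases before the start used in Mup2, 30 in Mup10, 25 in Mup17, 11 in Mup3 and 8 in Mup21, and 12 bases after it in Mup14.
Mup2 (chr4:60139877-60140043, minus strand): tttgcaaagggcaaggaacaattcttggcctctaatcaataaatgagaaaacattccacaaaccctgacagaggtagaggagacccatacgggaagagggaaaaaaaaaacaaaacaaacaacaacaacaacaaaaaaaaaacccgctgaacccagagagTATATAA
Mup10 (chr4:60582179-60582345, minus strand): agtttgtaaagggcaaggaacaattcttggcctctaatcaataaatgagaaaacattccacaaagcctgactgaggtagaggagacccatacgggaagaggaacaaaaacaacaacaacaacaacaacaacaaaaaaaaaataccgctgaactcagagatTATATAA
Mup14 (chr4:61303980-61304146, minus strand): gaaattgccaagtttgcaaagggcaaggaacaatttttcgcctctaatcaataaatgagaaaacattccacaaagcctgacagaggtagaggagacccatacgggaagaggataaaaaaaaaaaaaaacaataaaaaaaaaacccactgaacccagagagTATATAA
Mup17 (chr4:61595851-61596017, minus strand): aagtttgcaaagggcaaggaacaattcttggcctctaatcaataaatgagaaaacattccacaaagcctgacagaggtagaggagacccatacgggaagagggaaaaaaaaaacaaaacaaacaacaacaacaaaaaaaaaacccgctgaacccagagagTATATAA
Mup3 (chr4:62087322-62087488, minus strand): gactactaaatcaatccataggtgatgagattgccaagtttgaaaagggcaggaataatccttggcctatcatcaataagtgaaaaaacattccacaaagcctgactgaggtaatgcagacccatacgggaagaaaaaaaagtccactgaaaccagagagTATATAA
Mup21 (chr4:62150843-62151009, minus strand): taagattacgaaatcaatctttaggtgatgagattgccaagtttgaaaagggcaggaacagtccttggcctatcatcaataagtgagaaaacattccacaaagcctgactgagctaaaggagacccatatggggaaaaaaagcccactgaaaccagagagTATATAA
Among the central copies Mup2, Mup10, Mup14 and Mup17, identity over paired bases ranged from 92.4% to 99.4% in 6 pairs, with a median of 95.6%. Mup2 and Mup17 differed at 1 of 164 paired bases. Mup3 and Mup21, at the distal edge of the cluster, shared 92.7% of 164 paired bases. The 8 pairs of 1 central and 1 edge copy shared 87.6% to 89.9%, with 26 to 41 bases unpaired. The stretch between GACCCATA and TATATAA differs in length. It measured 71 bases in Mup2, 69 in Mup10, 59 in Mup14 and 68 in Mup17, of which 37 to 43 were A. In Mup3 it measured 34 bases with 17 A, and in Mup21 31 bases with 14 A. TATATAA was chosen after the sequences had been seen, as was GACCCATA, and on either strand TATATAA occurs in 3.24% of 32851 RefSeq promoters. The letters TTCNNNGAA (the core bound by STAT5), TTGCNNAA (C/EBP) and TATAAA were searched on both strands and were in none of the 7 member windows, against 8.30%, 10.8% and 13.6% of all promoters. That says only that these letters are not in these windows.

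Among the members with a matched identifier, Mup3 and Mup20 were the most abundant in both libraries, and both were lower in the CCl4 library while remaining among its abundant mRNAs. Mup3 measured 2479 RPKM with oil and 215 RPKM with CCl4, which is 11.5-fold lower, or a log2 ratio of -3.53. Its rank among mRNA transcripts moved from 14 to 227. Mup20 measured 1851 RPKM with oil and 327 RPKM with CCl4, which is 5.67-fold lower, or a log2 ratio of -2.50. Its rank moved from 21 to 133. Mup20 thus kept 17.6% of its oil level and Mup3 8.68%, more than any of the other members with a value in both libraries. The order of these copies also changed, with Mup3 above Mup20 in the oil library and Mup20 above Mup3 in the CCl4 library.

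The central copies Mup14 and Mup17 were the next most abundant members in the oil library and were at or under the lower edge of the listed values in the CCl4 library. Mup14 measured 1188 RPKM with oil (rank 41) and 2.46 RPKM with CCl4 (rank 13684), which is 484-fold lower and leaves 0.207% of its oil level. Mup17 measured 1012 RPKM in the oil library (rank 49) and was listed at 0 in the CCl4 library. No fold is given against a listed 0. These copies therefore stood within 2.46 RPKM of 0 in a library in which Mup3 and Mup20 stood at 215 RPKM or more.

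Mup1 and Mup2, the copies named first in the family, are each represented by more than 1 transcript. The 3 Mup1 transcripts measured 289, 135 and 127 RPKM in the oil library, and all 3 were listed at 0 in the CCl4 library. Mup2 has 2 identifiers, NM_001045550 and NM_008647, and each of them occurs 3 times in the mRNA data, as separate placements in the genome. The first placement of NM_001045550 measured 719 RPKM in the oil library and was listed at 0 in the CCl4 library. The first placement of NM_008647 measured 617 RPKM and was likewise listed at 0. The placements numbered next were weak in the oil library, with 4.06 and 3.33 RPKM, and listed at 0 in the CCl4 library. The remaining placements kept a value in both libraries. That of NM_001045550 measured 62.8 RPKM with oil and 1.17 RPKM with CCl4, which is 53.5-fold lower. That of NM_008647 measured 121 and 2.56 RPKM, which is 47.3-fold lower. The listed Mup2 signal in the CCl4 library therefore came entirely from placements that held a small share in the oil library. Summed over placements, NM_001045550 measured 786 and 1.17 RPKM and NM_008647 742 and 2.56 RPKM. Which genomic copies the later placements stand for is not given in the sources used here.

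The weaker members were Mup10, a central copy, and Mup21, at the distal edge. Mup10 measured 68.8 RPKM with oil and 1.56 RPKM with CCl4, which is 44.1-fold lower. Mup21 measured 35.7 RPKM in the oil library and was listed at 0 in the CCl4 library. Mup21 lies next to Mup3 and has a similarly short stretch before TATATAA, and of the pair Mup3 alone kept a listed value. The plot of RPKM by transcript shows each of these values.

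**Figure D1:**
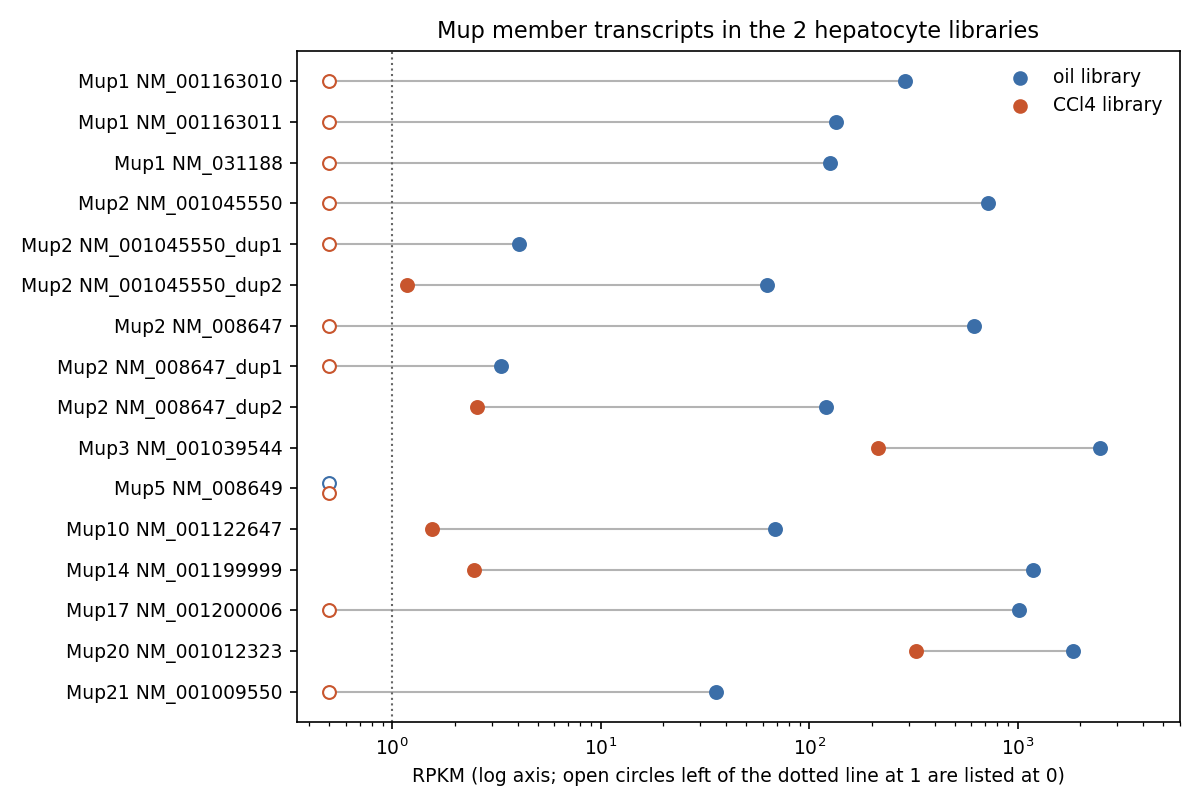
RPKM of the 16 member transcripts in the oil library (blue) and the CCl4 library (orange) on a log axis, 1 row a transcript with its RefSeq identifier, joined by a grey line; open circles left of the dotted line at 1 RPKM are values listed at 0. Of the 15 transcripts with a value, 9 are listed at 0 in the CCl4 library, 4 lie between 1.17 and 2.56 RPKM there, and Mup20 and Mup3 stand apart at 327 and 215 RPKM.

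In total, 15 of 15 member transcripts with a value stood lower with CCl4 at a log2 ratio of -1 or below, where values under the listing limit were raised to it. Across all mRNA transcripts with a value, 870 of 16680, or 5.22%, were lower by that measure and 2764, or 16.6%, were higher. Since the members were chosen for this contrast, nothing is read from the difference between their share and the 5.22%. Over mRNAs listed above 0 in both libraries the median log2 ratio was 0.33, and after the CCl4 library was scaled to remove this shift the split became 1489 higher and 1555 lower, with 15 of 15 member transcripts still lower. The log2 ratios of the 8 genes ranged from -9.98 to -2.50 with a median of -6.82, where the 4 genes listed at 0 in the CCl4 library (Mup1, Mup2, Mup17 and Mup21, each taken by its most abundant transcript) stand at their limit. Of the 600 mRNA transcripts that reached 100 RPKM with oil, 14 were listed at 0 in the CCl4 library. Of the 600, 10 were member transcripts and 6 of these were listed at 0. Another 5 were of other Mup genes, with 4 listed at 0, and 585 had no Mup symbol, with 4 listed at 0. The 6 member transcripts are of Mup1, Mup2 and Mup17 alone, and transcripts of 1 gene can share reads. The 600 were picked by their oil level and the members for this contrast, so nothing is read from these counts.

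Summed over 1 transcript a gene, the members measured 7642 RPKM with oil and 546 RPKM with CCl4, which is 14.0-fold lower, or a log2 ratio of -3.81. Relative to the median mRNA the log2 ratio was -4.13. The sum and the shares that follow cover matched identifiers alone, without Mup7 and without identifiers that had no symbol. Of the latter, NM_001134675 measured 2942 RPKM with oil, more than Mup3, and 2.05 RPKM with CCl4. Whether it is Mup7 or another Mup transcript was not determined. Were it one, the oil shares of Mup3 and Mup20 would be smaller than those given. Their part of the summed mRNA RPKM moved from 1.83% to 0.151%. This sum covers copies that behaved very differently. Mup3 and Mup20 together went from 4329.6 to 542 RPKM, 7.99-fold lower, whereas the 6 remaining members with a value went from 3313 RPKM to between 4.02 RPKM, with listed zeros taken as 0, and 8.02 RPKM, with the 4 listed zeros taken as the listing limit. At the limit the ratio is 413-fold. The split of the members into these 2 sets was made after their values were seen. Within the member sum of the oil library, Mup3 held 32.4%, Mup20 24.2%, Mup14 15.6%, Mup17 13.2%, Mup2 9.41% and Mup1 3.78%. In the CCl4 library Mup20 held 59.9% and Mup3 39.4%, and all other members together the remainder, so that the share of the pair moved from 56.7% to 99.3%. The residual Mup signal was thus almost entirely that of Mup20 and Mup3.

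**Figure D2:**
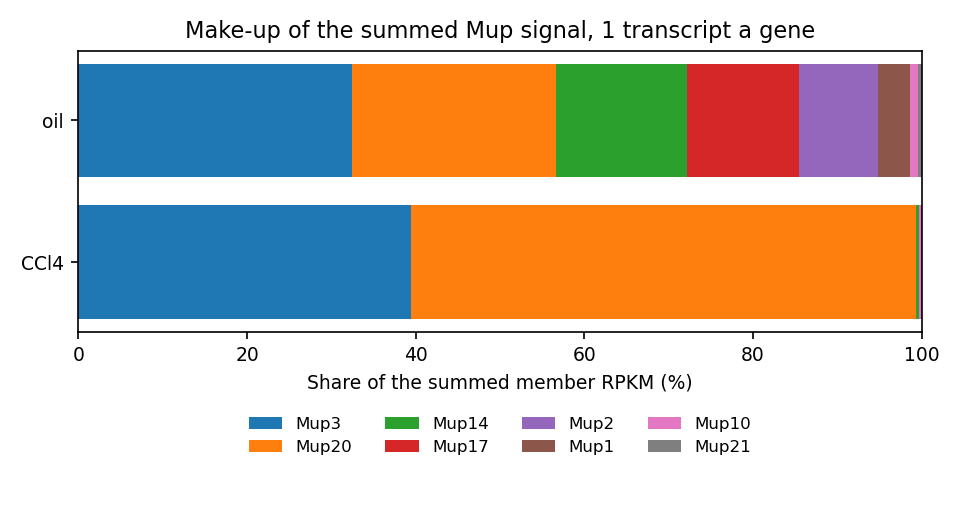
Share of each gene in the summed member RPKM (percent, 1 transcript a gene), oil library above and CCl4 library below, 1 colour a gene. Mup3 and Mup20 fill 56.7% of the oil bar and 99.3% of the CCl4 bar, while Mup14, Mup17, Mup2 and Mup1, visible in the oil bar, all but vanish from the CCl4 bar.

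The other Mup genes in the data resembled the central members. Transcripts were present for 8 of them, and 6 had a value. Mup15 measured 780.2 RPKM in the oil library, Mup19 567 RPKM, Mup16 131 RPKM, Mup12 36.7 RPKM and Mup18 16.7 RPKM, and all 5 were listed at 0 in the CCl4 library. Mup11 measured 518 RPKM with oil and 1.62 RPKM with CCl4, which is 319-fold lower. Mup4 and Mup6, at the proximal edge of the cluster, were listed at 0 in both libraries, like Mup5. Thus, of the 14 Mup genes with a value in the oil library, Mup3 and Mup20 alone exceeded 2.56 RPKM in the CCl4 library. With these genes added, the sum over 1 transcript a gene went from 9691 to 547 RPKM. The plot of level by position shows that Mup20 and Mup3 are neighbours near the distal end of the cluster, with Mup21 beyond them.

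**Figure D3:**
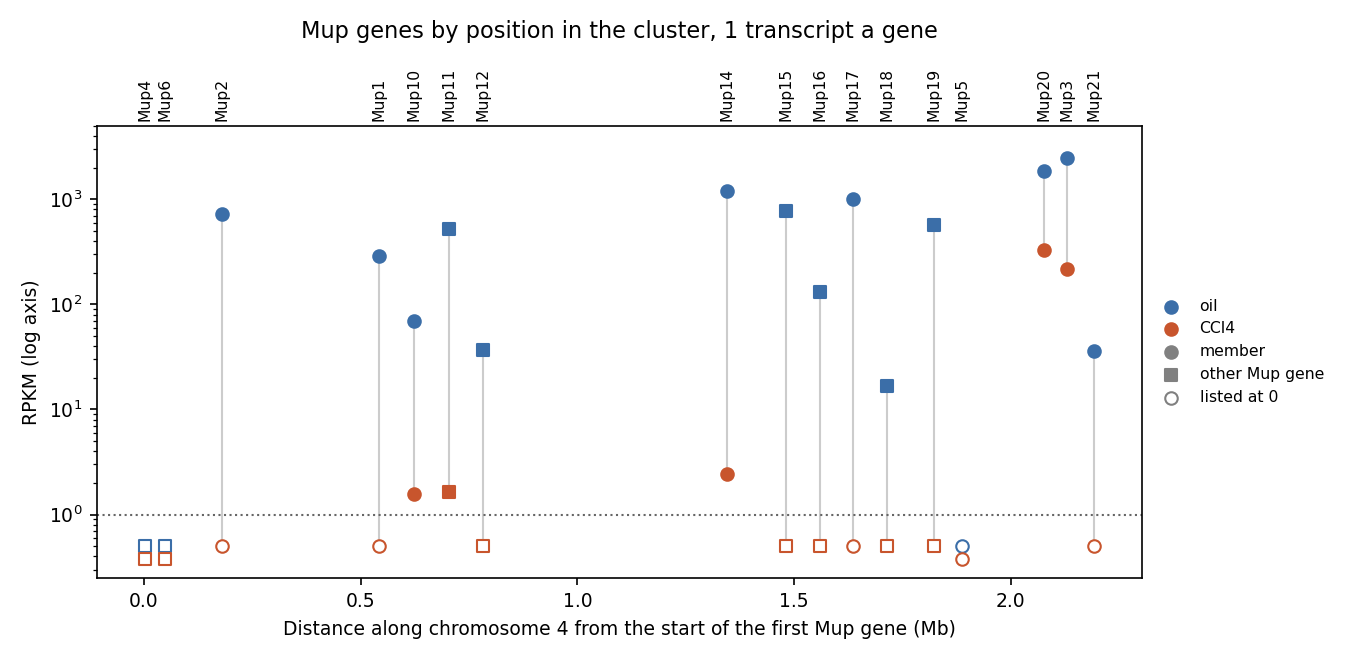
RPKM of each Mup gene (log axis, 1 transcript a gene) against its distance along the chromosome from the first Mup gene (Mb), circles for members and squares for other Mup genes, blue for the oil and orange for the CCl4 library; open symbols under the dotted line at 1 RPKM are listed at 0. In the CCl4 library the neighbours Mup20 and Mup3 lie at 327 and 215 RPKM, and every other gene shown lies at 2.46 RPKM or below.

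The data also hold read counts for lncRNAs outside the annotation, called new lncRNAs here. Of 1443 new lncRNAs, 3 lie within the Mup cluster. TCONS_00056047, on the minus strand at chr4:62011284-62012008, and TCONS_00056048, on the minus strand at chr4:62011309-62012508, both overlap the annotated span of Mup20. The former had 58 reads in the oil library (95% exact Poisson interval 44.0 to 75.0) and 0 reads in the CCl4 library (0 to 3.69). The latter had 42 reads (30.3 to 56.8) and 0 reads (0 to 3.69). TCONS_00057502, on the plus strand at chr4:61538922-61539654 between Mup16 and Mup17, overlaps no annotated gene and had 37 reads (26.1 to 51.0) in the oil library and 2 reads (0.242 to 7.22) in the CCl4 library. These intervals cover counting error only. The RNA over the annotated span of Mup20 was therefore not detected in the CCl4 library in these 2 entries, although Mup20 itself kept 327 RPKM there. Of the 414 such lncRNAs with at least 30 reads in the oil library, 14 had at most 2 reads in the CCl4 library, and these 3 are among them. The 30 reads were required in the oil library alone, where these 3 are high. The limit of 2 reads equals the CCl4 count of TCONS_00057502. Nothing is therefore read from their place among the 14. The entries over Mup20 overlap each other on the same strand, so they may share reads and are not independent. A read from Mup20 could have been counted for an overlapping lncRNA or the reverse, and how the counting treated strand is not given in the sources used here.

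Mup genes belong to a set of liver genes with higher expression in males, and the other genes of that set examined here were lower as well. This list was drawn up with earlier results of these data known, so its direction is a description and not a finding. Of 16 male-biased liver genes, 16 were lower by a log2 ratio of at least 1, with a median of -3.06 against 0.33 for all 12012 genes with a value (5.39% of all genes were lower by this measure and 16.5% higher). Elovl3, a fatty acid elongase, measured 205 RPKM in the oil library and was listed at 0 in the CCl4 library. Hsd3b5, a steroid dehydrogenase, measured 74.8 RPKM and was likewise listed at 0. Cyp7b1, an oxysterol hydroxylase, measured 58.8 and 1.88 RPKM, 31.3-fold lower. The male-biased genes spanned log2 ratios of -7.68 to -1.49, a range that holds Mup3, Mup20 and Mup10, and its lower end is Elovl3 at the listing limit. Gstp1, a glutathione transferase, measured 657 and 216 RPKM, only 3.04-fold lower. Of 19 female-biased liver genes, 6 had a value, 3 of them with CCl4 alone. Oil values were at most 2.08 RPKM, so that these genes could scarcely have been listed as lower, and no count is drawn from them. Among them were Cyp2b10 at 2.08 and 8.23 RPKM, Abcd2 at 1.19 and 5.57 RPKM and Cyp2a4 at 0 and 3.41 RPKM. Cyp2b9 measured 0 and 2.40 RPKM, Cyp17a1 2.01 and 2.86 RPKM and Prom1 0 and 1.10 RPKM. The Y-linked Ddx3y measured 11.3 and 9.11 RPKM, all 4 Y-linked genes examined had a value in both libraries, and both Xist transcripts were listed at 0 in both. These sex-linked genes were chosen after earlier results of the data were known.

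The growth hormone pathway, which drives Mup transcription, showed lower levels at some steps and not at others. Of its 11 genes, 3 were lower by a log2 ratio of at least 1, 1 was higher and 7 lay between, with a median of -0.21. Among all genes 5.39% were lower and 16.5% higher. With the CCl4 library scaled to the median mRNA, 4 of the 11 were lower, 1 was higher and 6 lay between. Under that scaling 1555 of all 16680 mRNA transcripts with a value were lower and 1489 higher. Ghr, the growth hormone receptor, measured 81.6 RPKM with oil and 27.2 RPKM with CCl4. Stat5b, the transcription factor downstream of the receptor, measured 12.2 and 12.5 RPKM, and Stat5a 3.81 and 3.52 RPKM. The receptor thus stood lower while the mRNA of neither factor passed the threshold. Among the known targets of the pathway, Socs2, a feedback inhibitor, measured 12.6 and 4.38 RPKM, Igfals, a carrier of insulin-like growth factor, 36.7 and 12.7 RPKM, and Igf1 26.4 and 15.9 RPKM. The targets Cish, Socs3 and Bcl6 had log2 ratios of -0.21, -0.14 and -0.30, between the thresholds. Igfbp3, which binds insulin-like growth factor and is also made by non-parenchymal cells, measured 3.52 and 46.5 RPKM, 13.2-fold higher.

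Other factors known to act on liver gene promoters, some of them on Mup genes, were examined through the 12 that had a value. Of these, 3 were lower, 1 was higher and 8 lay between, with a median log2 ratio of -0.65, beside the same 5.39% and 16.5% among all genes. After scaling to the median mRNA, 5 were lower and 0 were higher, beside 1555 lower and 1489 higher among all 16680 mRNA transcripts with a value. Hnf4a, a nuclear receptor of hepatocyte identity, measured 149 and 50.1 RPKM, 2.97-fold lower. Foxa3 measured 47.7 and 11.2 RPKM, 4.27-fold lower, and the thyroid hormone receptor Thrb 4.13 and 1.92 RPKM, 2.15-fold lower. Thra, the other thyroid hormone receptor, was 2.44-fold higher, with 3.61 and 8.79 RPKM. Cebpa, which binds many liver promoters, measured 92.5 and 98.1 RPKM, and Zhx2, a repressor-type homeobox factor that is linked to Mup levels between strains, 3.77 and 3.70 RPKM. Nr3c1, the glucocorticoid receptor, measured 12.8 and 14.3 RPKM.

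Other lipocalins and retinol carriers of the liver overlapped with the members in their ratios. Of 8 with a value, 6 were lower by a log2 ratio of at least 1, with a median of -1.70, beside 5.39% lower among all genes. Orm1 and Orm2, acute-phase lipocalins, measured 943 and 151 RPKM and 165 and 8.85 RPKM. Ambp, the precursor of another plasma lipocalin, measured 1499 and 665 RPKM, and Rbp4, the plasma carrier of retinol, 450.4 and 216 RPKM. Lcn2, an iron-sequestering lipocalin of inflammation, measured 99.7 and 21.4 RPKM. Apom, a lipocalin of high-density lipoprotein, measured 139 and 94.3 RPKM. Orm1, Orm2 and Orm3 had log2 ratios of -2.64, -4.22 and -2.94, all below that of Mup20, and Orm2 was also below Mup3.

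Secreted hepatocyte proteins were examined as a list of 18 genes, of which Ambp and Rbp4 are also in the list above. Of these 18, 13 were lower by a log2 ratio of at least 1 and 5 lay between, beside 5.39% lower among all genes. Their median was -1.36, with a range of -2.15 to -0.42. With the CCl4 library scaled to the median mRNA, 17 of the 18 were lower and 1 lay between. Of all 16680 mRNA transcripts with a value, 1555 were lower under this scaling. Albumin (Alb) measured 8656 RPKM with oil and 6476 RPKM with CCl4, and the fibrinogen chain Fgb, the lowest of the list, measured 2575 and 579 RPKM. Mup20, with the highest ratio of all members (-2.50), lay below the range of these 18 genes. This holds for the list as drawn up, since Serpina1e (-3.85), Orm1, Orm2 and Orm3 are also secreted by hepatocytes, stand in other lists and had ratios below that of Mup20. Hepatocyte identity genes had a median of -1.17, with 6 of 10 lower, 0 higher and all 10 with a value in both libraries. Among all genes 5.39% were lower. The same scaling to the median mRNA gave 9 of 10 identity genes lower and 1 between, beside the same 1555 of 16680 mRNA transcripts. The plot of log2 ratios by list sets these groups side by side.

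**Figure D4:**
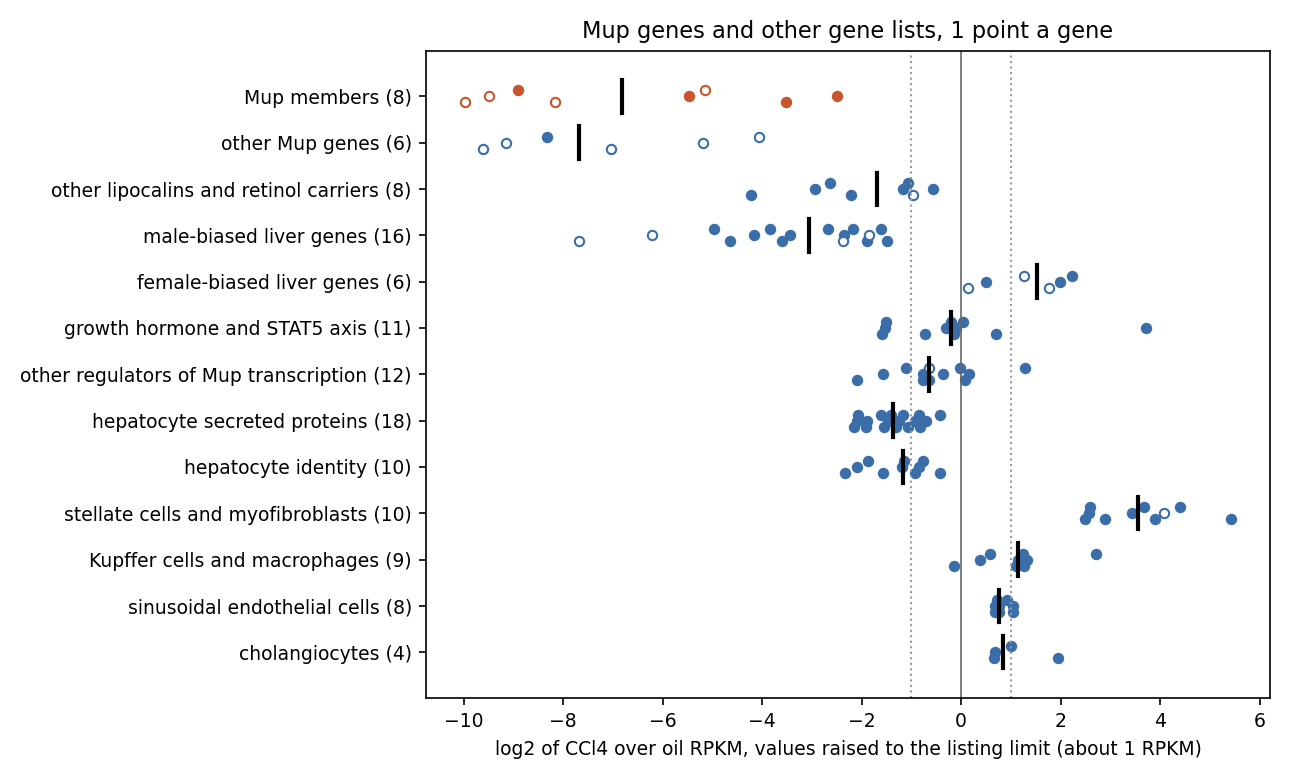
Log2 ratio of the CCl4 over the oil RPKM, 1 point a gene, for the Mup members (orange) and the other gene lists (blue), with the number of genes with a value in brackets; open circles are genes listed at 0 in 1 library, placed at the listing limit of about 1 RPKM, black bars are medians and dotted lines mark log2 ratios of -1 and 1. The members (median -6.82) lie left of the list of hepatocyte secreted proteins (median -1.36) but overlap with the other lipocalins (median -1.70) and the male-biased genes (median -3.06), and the stellate cell markers (median 3.56) lie right of 2.

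Markers of stellate cells and myofibroblasts were higher in the CCl4 library, and those of other non-parenchymal cells were in part higher and in part between the thresholds. Of 10 markers of stellate cells and myofibroblasts, 10 were higher by a log2 ratio of at least 1, with a median of 3.56, and their summed level was 78.5 RPKM with oil and 906 RPKM with CCl4. Of 9 Kupffer cell and macrophage markers with a value, 6 were higher and 3 lay between, and the sum went from 1218 to 2507 RPKM, with Clec4f, the defining Kupffer cell lectin, at 283 and 255 RPKM. Of 8 sinusoidal endothelial markers, 2 were higher and 6 lay between, beside 16.5% higher among all genes, with sums of 562 and 970.2 RPKM. Of 6 cholangiocyte markers, 4 had a value, 2 were higher and 2 lay between, the sums were 50.9 and 170.2 RPKM, and Sox9 and Cftr were listed at 0 in both libraries. Pdgfrb, a defining stellate cell marker, was listed at 0 in the oil library and measured 16.8 RPKM in the CCl4 library. After scaling to the median mRNA, 1489 of all 16680 mRNA transcripts with a value were higher. So were 10 of 10 stellate cell markers, 2 of 9 Kupffer cell markers, 0 of 8 endothelial markers and 1 of 4 cholangiocyte markers. The part of these cells in the lower Mup values was not tested.

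Outside the family, the 5 genes with the ratio nearest to that of the summed members were taken from 477 genes that reached 100 RPKM with oil and had a value with CCl4. Serpina1e, a member of the alpha-1-antitrypsin family that is also in the male-biased list, measured 4890.2 and 339 RPKM, a log2 ratio of -3.85. It was followed by Cxcl1, a chemokine for neutrophils, with 105 and 9.27 RPKM. Nudt7, a peroxisomal coenzyme A hydrolase, measured 281 and 25.9 RPKM, Orm2 had the values given above, and Sult2a8, a liver sulfotransferase, measured 119 and 11.9 RPKM. The closest relatives of Serpina1e in the list of secreted proteins, Serpina1a, Serpina1b, Serpina1c and Serpina1d, had log2 ratios of -1.56, -1.61, -1.89 and -1.92. This likeness rests on 1 ratio per gene from 2 libraries.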

How the data were processed

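The 2 libraries of hepatocyte RNA were analysed. Per the labels, CASAVA 1.4, TopHat2 and mm10 were used, whereas the counting program and annotation release are not given in the sources used here. The authors deposited RPKM values for mRNAs, annotated lncRNAs and new lncRNAs, and read counts for the new lncRNAs. In the comparison data values under 1 RPKM are listed as 0, as tested on the new lncRNAs (1354 of 1354 in the oil and 1347 of 1347 in the CCl4 library). The authors' log2 change, p-values and q-values are their own comparison and were not used.

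Symbols came from a RefSeq table of GRCm38.p6 and were found for 27049 of 27457 mRNA identifiers. A gene was represented by the transcript with the highest mean RPKM. Log2 ratios were taken after raising values to the lowest listed value (1.00035 RPKM), and an absolute log2 ratio of at least 1 was the threshold for a gene to count as higher or lower. Library totals were searched so that RPKM of RefSeq genes under 400 bases gave whole reads (57991375 in the oil library, whole within 0.02 reads in 134 of 138 genes; 64653250 in the CCl4 library, 144 of 148). The totals behind the new lncRNA values were 62438204 and 70960847 reads. With 1 library per group there was no test.

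The genes named are all transcripts of the members, the genes of the lists, and the 5 non-Mup genes of at least 100 RPKM in the oil library nearest in ratio to the summed members. Members and lists were chosen with earlier results of these data known. Promoters were aligned in pairs with Biopython 1.88, leaving unpaired 5′ ends out. Calling and the search for totals were tested on simulated data. The scripts ran in Python 3.11.15 with pandas 2.3.3, scipy 1.17.1, numpy 2.4.6 and matplotlib 3.10.9. Alternatives were another scaling of the libraries, other treatments of low values, filters, a stricter threshold and other choices of transcript. Proteins were not analysed here. Of the lists, the text names examples, and some genes are not reported here.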

Additional observations from a re-analysis of the deposited data

How the results depend on the processing

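Each of the 40 alternative values of single members was lower in the CCl4 library, and 7 of them moved by over 1.5 times. Members listed at 0 with CCl4 had the same value under both scalings, which moved the log2 ratios of the others by -0.33 and 0.12. With main ratios of -2.50 or below, the direction could scarcely have changed, so nothing is read from it. The log2 ratio of the summed members, -3.81, became -9.69 without Mup3 and Mup20 with listed zeros taken as 0, and -8.69 with them at the listing limit, both choices made after seeing the data, and stayed within 1.5 times under the 7 other alternatives. Of the 15 member transcripts, 6 had a value in both libraries and were all lower. Of all mRNA transcripts, 2764 were higher and 870 lower as reported. After the CCl4 library was scaled to the median mRNA, 1489 were higher and 1555 lower. At an absolute log2 ratio of at least 2, 376 were higher and 137 lower. Once means under 10 RPKM were left out, 806 were higher and 599 lower. With 0.1 RPKM added, the median became -9.44 for the other Mup genes, -2.43 for the other lipocalins, -3.68 for the male-biased and 2.86 for the female-biased genes. For the other Mup genes it became -8.32 with a value in both libraries, which leaves Mup11, and -8.32 again without means under 10 RPKM. With that filter it became -3.85 for the male-biased genes and 1.48 for cholangiocytes. The filters leave fewer genes. No member and no list median changed direction, whereas the balance of higher to lower mRNA transcripts turned over with the scaling to the median mRNA. The female-biased genes had oil values of at most 2.08 RPKM, so their median could scarcely have turned and nothing is read from its direction. No female-biased gene reached a mean of 10 RPKM, so that filter gave no value for them. No paired analysis was possible because each group has 1 library. Values under 1 RPKM cannot be ordered, so copies listed at 0 in the CCl4 library cannot be ranked there.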

Other observations

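Of the 27457 mRNA transcripts, 408 had no symbol in the tables used, and 182 of these had a value in at least 1 library. Whether any of them belongs to the Mup family was not determined, so the order, sums and shares of the Mup genes given above hold for matched identifiers alone. The most abundant of them, NM_001134675, measured 2942 RPKM with oil, rank 8 among mRNA transcripts, and 2.05 RPKM with CCl4. NM_001134644, which likewise had no symbol, was placed at several sites, of which 3 reached 100 RPKM with oil (1018, 565 and 131 RPKM) and were listed at 0 with CCl4. Of the 14 transcripts that reached 100 RPKM with oil and were listed at 0 with CCl4, these 3 placements and Elovl3 were the ones outside the Mup symbols.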
